A study of Mus musculus with 34 samples.

Results

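The cytosolic ribosomal protein genes were examined in mouse kidney. Members were taken by symbol: every gene named Rpl or Rps followed by a number and at most 1 of the letters a, x, y or l, together with Rplp0, Rplp1, Rplp2 and Rpsa, with pseudogene names (-ps) left out. This gave 81 genes of the 23509 in each table, 49 of the large subunit (names starting Rpl) and 32 of the small subunit (names starting Rps). The naming rule itself uses no measured value. Of the 81, 79 passed the filter on low counts and were tested among 15644 genes. The other two, *Rpl10l* and *Rpl39l*, had 0 and 31 reads in total over all 34 libraries.

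Polyadenylated RNA from whole kidneys on postnatal day 28 was sequenced from 34 mice labelled as C57BL6. *Pkd2*-KO mice, whose genotype the labels spell Pdk2KO, received RGLS4326 at 20 mg per kg (n = 11) or PBS (n = 11) under the skin on postnatal days 10, 11, 12 and 19. RGLS4326 is a short modified oligonucleotide that binds and inhibits the microRNA miR-17. Untreated non-transgenic mice of the matched strain (UNT, n = 12) served as the normal kidneys. In the study's model, floxed *Pkd2* was deleted by a Cre recombinase under the *Pkhd1* promoter, which is active in renal tubules, so other cells of the organ kept the gene. Every treated and vehicle mouse carried the knockout, and no untreated knockout and no dosed normal mouse was among the labels, so that the effect of the knockout and that of the injections cannot be told apart when a dosed group is set beside UNT. The labels give each library as its own numbered mouse. They hold more PBS mice than the study's text states for its RNA sequencing, and the labels are followed here.

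Total gene counts spanned 17603122 to 54981992 among libraries. *Pkd2* itself was at 220 to 338 CPM (counts scaled to a common library size with trimmed mean of M values factors) in UNT, at 98.0 to 215 in PBS and at 170 to 237 in RGLS4326 kidneys, so every PBS kidney lay below every UNT kidney. The library index in the names of the deposited tables restarted, which split the kidneys into 3 numbering sets of 3 or 4 kidneys a group. The sets are used here as a possible batch, although nothing in the labels says what they stand for. In bulk tissue, fewer cells of a type and less RNA per cell cannot be told apart.

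Cytosolic ribosomes are built in the nucleolus from ribosomal RNA and about equal amounts of each ribosomal protein, and the genes for these proteins are among the most strongly transcribed of any cell. The small subunit decodes the mRNA, the large subunit joins the amino acids, and the P stalk of the large subunit, made of Rplp0, Rplp1 and Rplp2, recruits the elongation factors. Most ribosomal protein mRNAs start with a C followed by a run of pyrimidines, the 5′ terminal oligopyrimidine (TOP) tract, through which mTOR and the protein Larp1 set how much of the mRNA is translated. Kidneys of animals with polycystic disease are known for raised mTOR signalling.

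Sequence around the start of transcription was available for 60 of the 81 members (RefSeq promoters, build GRCm38.p6, 250 bases before to 50 after the annotated start). The 30 bases centred on that start are shown for the members with the smallest p when cystic and normal kidneys were compared, for the 3 with the smallest p with treatment, for the pair called lower in disease and for Rplp0, with the longest run of C and T that began with C within 10 bases of the start in capitals where it had 5 or more bases.
*Rpl12*, chr2:32961697-32961726, plus strand: ggcggagcaggatccgtCTTTTCggctttc
*Rpl14*, chr9:120571502-120571531, plus strand: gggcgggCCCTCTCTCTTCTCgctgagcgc
*Rps9*, chr7:3704026-3704055, plus strand: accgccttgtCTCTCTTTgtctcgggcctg
*Rps6*, chr4:86857353-86857382, minus strand: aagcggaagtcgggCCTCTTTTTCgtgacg
*Rps4x*, chrX:102189377-102189406, minus strand: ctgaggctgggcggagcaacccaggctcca
*Rpsa*, chr9:120127751-120127780, plus strand: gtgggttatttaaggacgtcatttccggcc
*Rpl18*, chr7:45718056-45718085, plus strand: tgcgtctcgcaggccgCTCTTTCCCCgccc
*Rpl13a*, chr7:45128731-45128760, minus strand: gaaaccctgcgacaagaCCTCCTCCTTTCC
*Rpl41*, chr10:128549154-128549183, minus strand: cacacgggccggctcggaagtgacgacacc
*Rpl3l*, chr17:24727811-24727840, plus strand: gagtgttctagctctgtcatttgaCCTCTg
*Rps27l*, chr9:66946071-66946100, plus strand: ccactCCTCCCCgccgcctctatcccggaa
*Rplp0*, chr5:115559452-115559481, plus strand: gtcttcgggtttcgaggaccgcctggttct
The run in *Rpl13a* continued past the window. *Rpl14* and *Rpl13a* had 14 such bases, *Rps6* and *Rpl18* 10, and *Rps4x*, *Rpsa*, *Rpl41* and *Rplp0* had fewer than 5 at the annotated start, which may not be the base where most transcripts begin.

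A run of at least 5 bases was found in 35 of the 60 member promoters (58.3%) in 32.2% of the promoters of tested genes and in 30.8% of all 27018 promoters of the same length. Runs of at least 8 bases were in 33.3% of the members, 8.52% of tested genes and 8.03% of all. The sequence CCGGAAG, the core bound by ETS family factors, was on either strand in 24 members (40%) in 15.9% of the promoters of tested genes and in 9.12% of all promoters. AAGATGGC, the core of the YY1 site, was in 4 members (6.67%), 4.17% of tested genes and 2.88% of all. The median log2 fold change of PBS vs UNT was 0.54 over the 33 tested members with a run and 0.59 over the 25 without, and that of RGLS4326 vs PBS was -0.35 in both sets. The difference between the sets was not tested, and these matches describe letters only.

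In normal kidneys the members took 1.37% to 2.01% of the reads in genes. On the scale of CPM per kilobase of annotated transcript, the highest levels in UNT were 876 for *Rplp1*, 686 for *Rpl41*, which encodes the shortest ribosomal protein, and 591 for *Rps15*, a protein of the small subunit head. The lowest were 0.812 for *Rpl3l*, 1.80 for *Rpl26* and 2.48 for *Rps27*. *Rpl3l* is the striated muscle counterpart of *Rpl3*, whereas *Rpl26* and *Rps27* encode proteins of every ribosome. *Rpl30* and *Rpl34* were also low, at 6.02 and 9.39 CPM per kilobase. Only uniquely mapped reads were counted, and these genes have near-copies elsewhere in the genome. Of the 75-base windows of the annotated transcript, 57.5% in *Rpl26*, 98.5% in *Rps27*, 65.1% in *Rpl30* and 41.4% in *Rpl34* also occurred in another annotated gene. *Rpl5* shared 92.5% of its windows and was at 171 CPM per kilobase. The part of shared windows in these levels was not tested. Windows were shared with another gene in 77 of the 81 members, and 37 overlapped an annotated gene on either strand, often a small nucleolar RNA in an intron. Among the genes named below, *Rpl12*, *Rpl15*, *Rpl18*, *Rpl23a*, *Rpl30* and *Rpl5* overlap a gene on the opposite strand (*Lrsam1*, *Nkiras1*, *Sphk2*, *Tlcd1*, *D730044K07Rik* and *Fam69a*). The strand setting of the counting was not given in the sources used here, so reads of such pairs may not have been told apart. Levels of single members are therefore uncertain, and comparisons between groups of mice are used below.

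The first comparison asked how cystic kidneys differ from normal ones. Ribosomal protein mRNAs were more abundant in PBS-treated *Pkd2*-KO kidneys than in UNT kidneys across both subunits. The members' summed level was 16192 CPM in the lowest, 19044 in the median and 22526 in the highest UNT kidney, and 22161, 25572 and 49038 in the PBS kidneys. Only the lowest PBS kidney fell within the UNT range. The means were 19128 ± 1852 (SD, n = 12) and 28327 ± 7465 (SD, n = 11), a ratio of 1.45 of the geometric means. With edgeR's quasi-likelihood test and Benjamini-Hochberg adjustment over all tested genes, 71 of 79 members (89.9%) were called higher and 2 (2.53%) lower at an adjusted p under 0.05. Among all tested genes 82% were called, 43.1% higher and 38.9% lower. The median log2 fold change was 0.56 over the members and 0.04 over all tested genes. All 11 PBS kidneys were above all 12 UNT kidneys for 29 members, or 36.7%, against 22.7% of all tested genes, and no member lay wholly below (19.8% of all tested genes did). In numbering sets 1, 2 and 3 alone 48, 58 and 66 members (60.8%, 73.4% and 83.5%) were called higher, with medians of 0.29, 0.38 and 0.85, where 37%, 35.8% and 33.8% of all genes were. Set 3 holds PBS replicate 9, the kidney with the highest summed level, and the SD of the log2 summed level over PBS kidneys was 0.04, 0.20 and 0.43 in sets 1, 2 and 3. An edgeR interaction of disease with numbering set passed for 0 of 15644 genes. Its unadjusted p was under 0.05 for 2847 of the 15644 genes and for 43 of the 79 members, a larger share of the members. When the percent of reads assigned to no gene was added as a covariate 30 members (38%) were called higher and 2 (2.53%) lower, where 37% and 33.1% of all genes were. The members' median was then 0.25, that of all genes 0.03, and 72 of 79 members were positive. When the percent of reads not aligned uniquely was added, 42 members (53.2%) and 26.2% of all genes were called higher. Those percents were 9.84% to 11.3% and 22.8% to 25.7% in UNT and 5.18% to 8.995% and 14.8% to 19.4% in PBS libraries, and their part in the result was not tested.

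**Figure D1:**
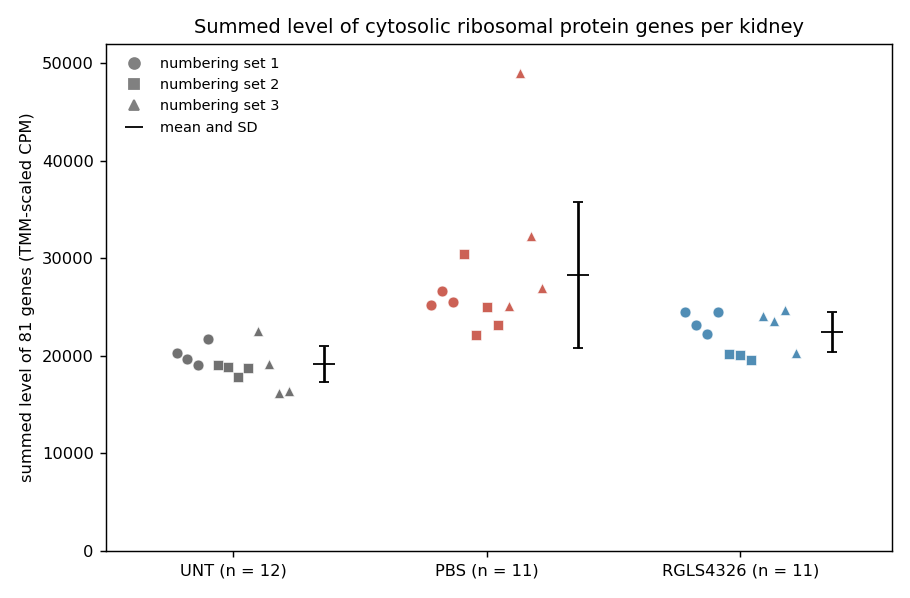
Summed level of the 81 ribosomal protein genes in each kidney (vertical axis, TMM-scaled CPM), by group on the horizontal axis, with symbols for the 3 numbering sets and the mean and SD beside each group. PBS kidneys lie mostly above UNT kidneys, and PBS replicate 9, at 49038, stands apart from the other PBS kidneys (22161 to 32299).

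With the stalk genes and the 3 tested paralogs (*Rpl3l*, *Rps27l* and *Rps4l*) counted apart, the small subunit rose in 29 of 30 tested genes with a median of 0.67, and the large subunit in 38 of 43 with a median of 0.48. All 3 stalk genes rose, and of the paralogs 1 rose and 2 fell. The 6 members with the smallest p are given in full. *Rpl12*, whose protein sits at the base of the stalk, was at 180 to 266 CPM in UNT (median 227) and 337 to 764 in PBS (median 393). Its log2 fold change was 0.96 with an SE of 0.10 (adjusted p = 1.86e-11). *Rpsa*, a small subunit protein also known as the laminin receptor precursor, went from 350 to 500 (median 435) to 576 to 1387 (median 744), with a log2 fold change of 0.93 ± 0.10 (adjusted p = 3.04e-10). In both genes the groups did not overlap. Errors given beside log2 values from here on are SEs.

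*Rps9* spanned 302 to 412 CPM in UNT (median 362) and 502 to 1079 in PBS (median 569), with a log2 fold change of 0.82 ± 0.09 (adjusted p = 4.70e-10). X-linked *Rps4x* spanned 398 to 554 (median 457) and 639 to 1310 (median 747), with a log2 fold change of 0.81 ± 0.09 (adjusted p = 1.72e-10). *Rpl14* spanned 195 to 267 (median 234) and 322 to 653 (median 369), with a log2 fold change of 0.79 ± 0.09 (adjusted p = 1.88e-10). *Rps6*, the substrate of the S6 kinases downstream of mTOR, spanned 128 to 172 (median 148) and 195 to 414 (median 228), with a log2 fold change of 0.77 ± 0.09 (adjusted p = 5.80e-10). None of these 4 genes overlapped between UNT and PBS. The stalk genes *Rplp2*, *Rplp0* and *Rplp1* rose by 0.90 ± 0.10, 0.74 ± 0.15 and 0.66 ± 0.10 on the log2 scale.

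Of the members measured, 6 were not called. *Rpl5*, which with Rpl11 and a ribosomal RNA binds Mdm2 when ribosome assembly fails, was at 351 ± 39 CPM in UNT and 373 ± 83 in PBS, with a log2 difference of 0.09 ± 0.09 (adjusted p = 0.343). *Rpl35a* and *Rpl23* had log2 differences of 0.08 ± 0.12 and 0.18 ± 0.09. These 3 genes were at 176 to 353 CPM on average in UNT. *Rpl34* had a log2 difference of 0.16 ± 0.14 at about 5 CPM, and *Rpl29* of 0.54 ± 0.34 with the widest spread of any member.

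The 2 members called lower were both paralogs. *Rpl3l* was at 0.802 to 2.03 CPM in UNT (median 0.987) and 0.253 to 0.845 in PBS (median 0.340), with 471 reads over the UNT and 160 over the PBS libraries. Its log2 fold change was -1.48 ± 0.20 (adjusted p = 1.91e-08), while its parent *Rpl3* rose by 0.69 ± 0.08 (adjusted p = 9.37e-10). *Rps27l*, a paralog of *Rps27* that p53 induces, was at 97.8 to 151 CPM in UNT (median 126) and 77.1 to 198 in PBS (median 95), with a log2 fold change of -0.24 ± 0.11 (adjusted p = 0.0363). Its groups overlapped, and the difference was positive with library size alone as scaling or in numbering set 3 alone. *Rps27* was close to the detection limit, at 0.857 ± 0.181 CPM in UNT and 1.27 ± 0.370 in PBS, and was called higher (log2 fold change 0.56 ± 0.14). *Rps4l*, a single-exon copy of *Rps4x*, rose from 8.37 to 18.9 CPM (median 13.4) to 20.8 to 34.1 (median 27.9) without overlap, by 0.96 ± 0.13 on the log2 scale. *Rpl39l*, which like *Rpl10l* is best known from testis, had 1 read over the UNT and 16 over the PBS libraries. *Rpl10l* had 0 reads in every library, and no fold is given for either.

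**Figure D2:**
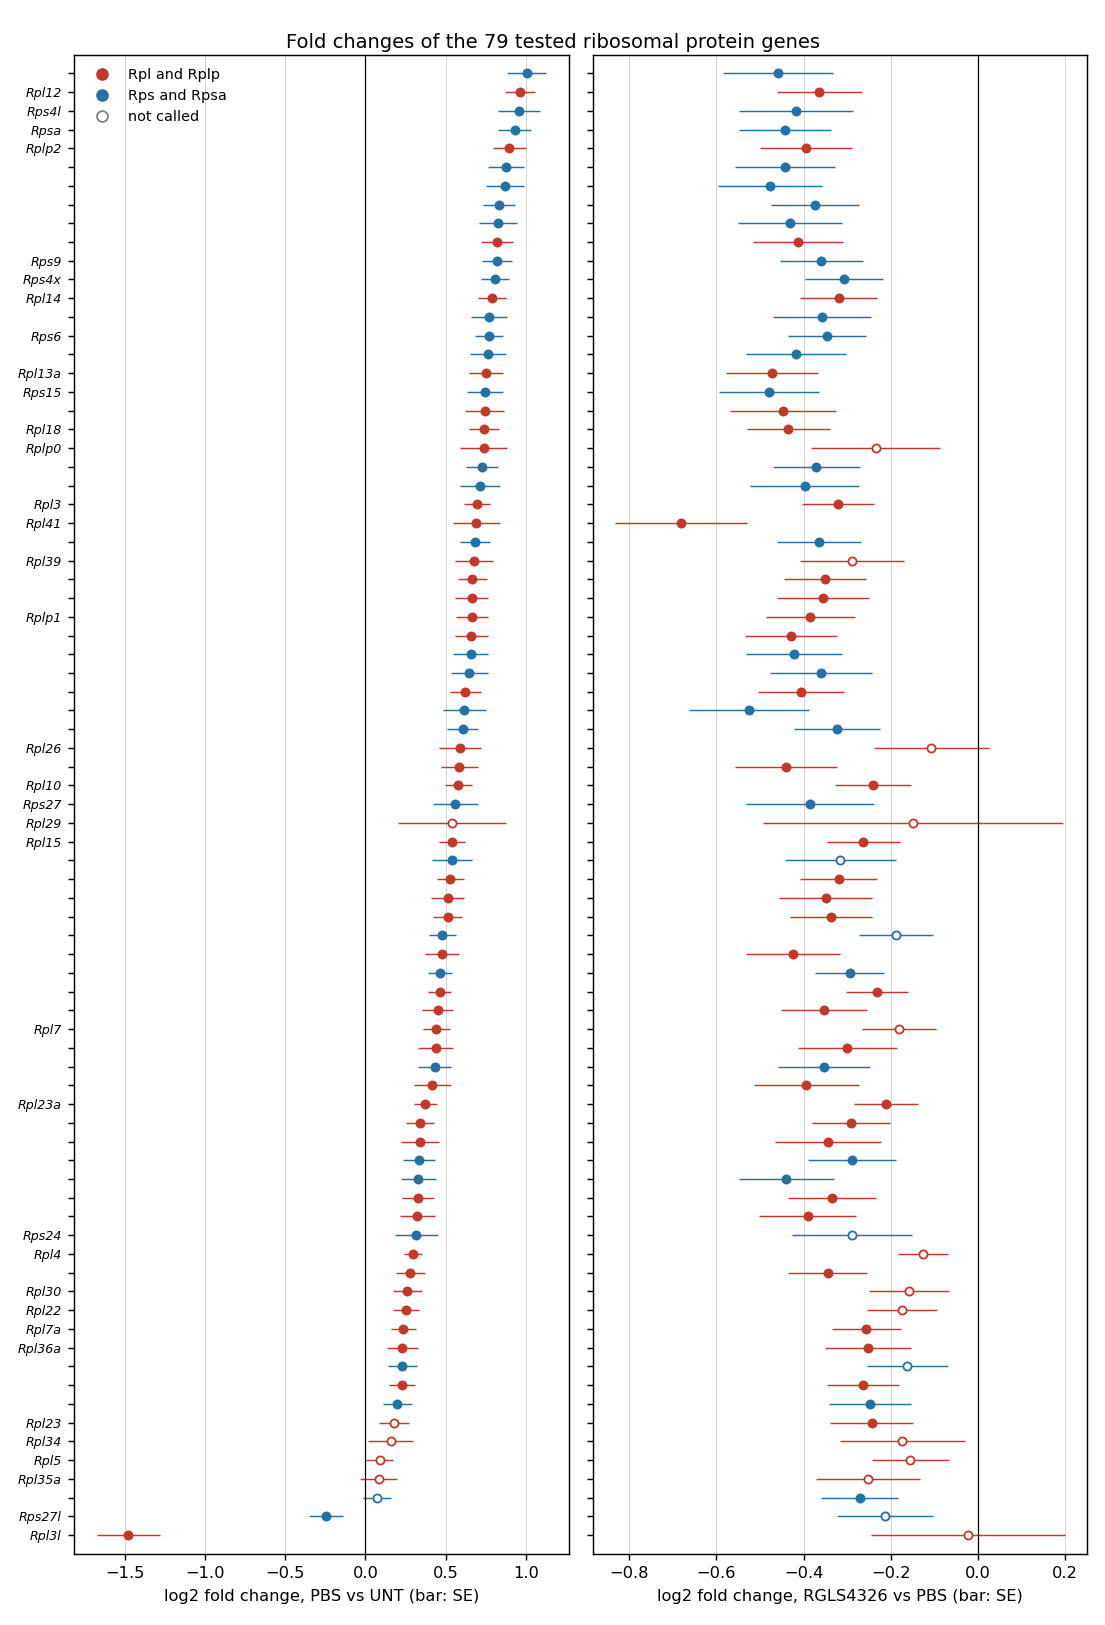
Log2 fold changes (horizontal axes, bars are SE) of the 79 tested members, 1 row per gene ordered by PBS vs UNT (rows of genes named in the text are labelled), with PBS vs UNT at left and RGLS4326 vs PBS at right. Filled points passed an adjusted p of 0.05: 73 of 79 at left, all but *Rps27l* and *Rpl3l* to the right of 0, and 62 of 79 at right, all to the left of 0. Both panels use the same PBS mice.

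The second comparison asked what RGLS4326 did to these genes in cystic kidneys. It used the same PBS mice as the first, so the directions are not independent. The members' summed level was 19612 CPM in the lowest, 23124 in the median and 24727 in the highest RGLS4326 kidney, with a mean of 22469 ± 2037 (SD, n = 11), against 22161, 25572 and 49038 in PBS. The groups overlapped, and 4 of the 11 treated kidneys lay below the lowest PBS kidney. Of 79 members, 0 were called higher and 62 (78.5%) lower. Among all tested genes 33.7% were called, 15.2% higher and 18.4% lower. The median log2 fold change was -0.35 over the members and 0.00 over all tested genes, and the 79 values were all negative. No member separated all treated from all PBS kidneys, as 0.0447% of all tested genes did upward and 0.0192% downward.

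*Rpl41* had the most negative value. Its level was 239 to 380 CPM (median 298) in RGLS4326 and 314 to 1134 (median 387) in PBS kidneys, a log2 fold change of -0.68 ± 0.15 (adjusted p = 0.00305). In UNT it was at 235 to 381 (median 299), so the treated range lay almost on the UNT range. *Rpl18* was at 175 to 249 (median 206) against 213 to 456 (median 261) in PBS, with a log2 fold change of -0.44 ± 0.10 (adjusted p = 0.00291). *Rpl13a*, a large subunit protein known also for silencing inflammatory mRNAs, was at 400 to 562 (median 480) against 489 to 1182 (median 610), with a log2 fold change of -0.47 ± 0.11 (adjusted p = 0.00310).

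*Rps15* was at 285 to 446 CPM (median 367) against 344 to 885 (median 449), with a log2 fold change of -0.48 ± 0.12 (adjusted p = 0.00450). *Rpsa* was at 499 to 723 (median 618) against 576 to 1387 (median 744), with a log2 fold change of -0.44 ± 0.11 (adjusted p = 0.00435). All 5 of these genes overlapped between the groups. With stalk genes and paralogs counted apart as before, the small subunit fell in 26 of 30 genes with a median of -0.36, the large subunit in 33 of 43 with a median of -0.32, and 2 of the 3 stalk genes fell. The third, *Rplp0*, had a log2 difference of -0.24 ± 0.15 (adjusted p = 0.21). Of the paralogs *Rps4l* fell by 0.42 ± 0.13 on the log2 scale, and *Rps27l* (-0.21 ± 0.11) and *Rpl3l* (-0.02 ± 0.22) did not pass.

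The treatment result rested in part on a single kidney and was not the same in every adjustment. PBS replicate 9 had the highest PBS level of 75 of the 79 members (94.9%, against 24.9% of all tested genes), and its members were at a median of 1.90 times the median of the other PBS kidneys. Without it 51 members (64.6%, against 13.2% of all genes) were called lower with a median log2 fold change of -0.22. In the first comparison 64 (81%, against 41.8% of all genes) were then called higher with a median of 0.42. In numbering set 1, 2 and 3 alone the treatment test called 0, 45 and 0 members lower (0%, 57% and 0%), with medians of -0.13, -0.33 and -0.53. Of all tested genes 0.0445%, 12.1% and 0% were called lower, and 32, 4081 and 0 genes were called in either direction. When the percent of reads assigned to no gene was added as a covariate 0 members were called in this comparison, with a median of -0.18, and 93 genes in all. That percent was 4.94% to 12.0% in RGLS4326 libraries. Whether the treatment effect differed between sets was tested by an interaction term in edgeR, which passed for 0 of 15644 genes. Its unadjusted p was under 0.05 for 1115 of the 15644 genes and for 1 of the 79 members.

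Ribosomal protein mRNAs are short, so the level of short against long genes was also set beside them. It was measured without the members, as the mean log2 level of 2330 genes with transcripts under 1000 bases minus that of 1350 genes with transcripts over 5000 bases. It ran from -0.33 to 0.13 in UNT, from -0.56 to -0.23 in RGLS4326 and from -0.42 to -0.03 in the other PBS kidneys, and was 0.56 in PBS replicate 9. With this index as a covariate, chosen after the data were seen, 76 members (96.2%, against 43.7% of all genes) were called higher in PBS than in UNT, 0 were called lower in RGLS4326 than in PBS with a median of -0.06, and 125 genes in all were called in the treatment test. Its part in the treatment result was not tested otherwise.

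**Figure D3:**
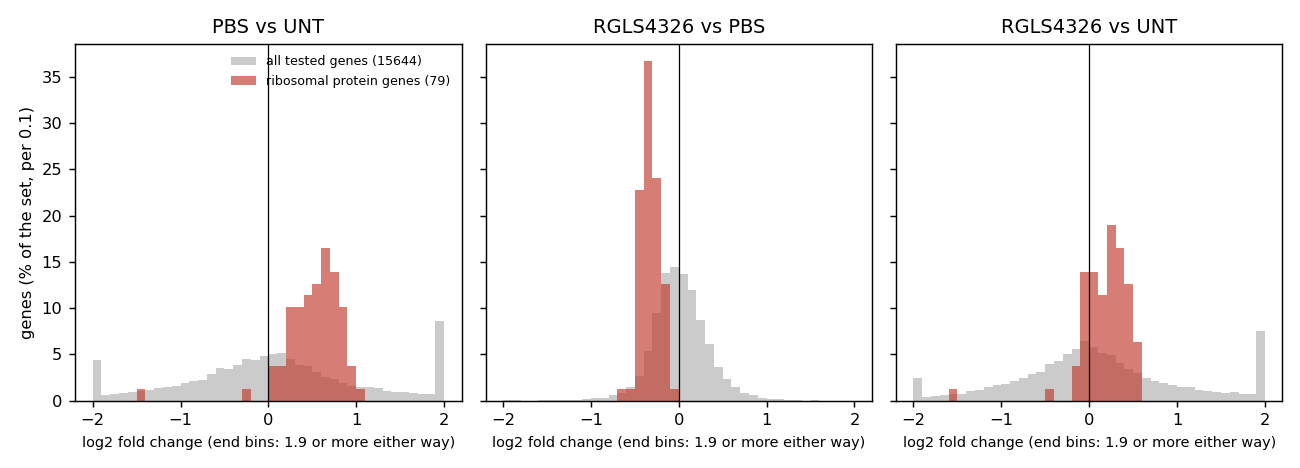
Distribution of log2 fold changes (horizontal axes, bins of 0.1, end bins hold all values from 1.9 either way) of the 79 tested members and of all 15644 tested genes, as a percent of each set (vertical axis), in the 3 comparisons. The members' medians are 0.56, -0.35 and 0.23, and those of all tested genes 0.04, 0.00 and 0.02.

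The third comparison set treated cystic kidneys beside normal ones. The summed level of the RGLS4326 kidneys was 1.18 times that of UNT as a ratio of geometric means. Of 79 members, 44 (55.7%) were called higher and 3 (3.80%) lower, where 77.7% of all tested genes were called, 40.8% higher and 36.9% lower, and the median log2 fold change was 0.23. The members' share of calls upward was thus closer to the background than in PBS vs UNT. All treated kidneys lay above all UNT kidneys for 5 members, among them *Rpl12*, *Rpl14*, *Rps4x* and *Rps9*, and below for *Rpl3l* (20.7% and 16.1% of all tested genes). *Rpl12* was at 305 to 389 CPM in treated kidneys, between the ranges of the other groups at its median of 336. *Rpl3l* was at 0.188 to 0.585, against 0.253 to 0.845 in PBS. The upward count moved from 5 (6.33%, against 26% of all genes) when the percent of reads not aligned uniquely was a covariate to 77 (97.5%, against 39.3%) with the short and long gene index. That percent was 22.8% to 25.7% in UNT and 14.8% to 19.1% in RGLS4326 libraries.

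The spread between kidneys of a group was described and not tested. It was widest in PBS, and much closer to the other groups when PBS replicate 9 was left out. On the log2 scale the SD of the summed level was 0.14 in UNT, 0.32 in PBS and 0.13 in RGLS4326 kidneys, and 0.16 in PBS without replicate 9. The median SD of a single member was 0.17, 0.32 and 0.16 in the same order, and 0.19 in PBS without that kidney. Members varied together from kidney to kidney. The median Pearson correlation between pairs of members over the kidneys of a group was 0.79 in UNT (n = 12), 0.92 in PBS (n = 11), 0.72 in PBS without replicate 9 and 0.61 in RGLS4326 (n = 11), where pairs of all tested genes had medians from -0.00 to 0.01. All points of a kidney share its library, depth and scaling factor. In UNT, replicate 9 was highest for 54 members and replicate 11 lowest for 47. In PBS, replicate 5 was lowest for 56, and in RGLS4326, replicate 7 was lowest for 37. The steadiest members were *Rpl15*, *Rpl3* and *Rpl7a* in UNT, *Rpl4*, *Rpl30* and *Rpl26* in PBS and *Rpl23a*, *Rpl7* and *Rpl22* in RGLS4326. In PBS *Rpl30* and *Rpl26* were at 4.13 and 1.42 CPM on average, so low that the pseudocount of 0.5 CPM shrinks their SDs. *Rpl4* had SDs of 0.10, 0.14 and 0.10. The widest were *Rpl29*, *Rplp0* and *Rpl34* in UNT, *Rpl29*, *Rpl41* and *Rps24* in PBS and *Rpl29*, *Rplp0* and *Rps4l* in RGLS4326.

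*Rpl29*, which encodes a large subunit protein that also binds heparin, had an SD of 0.84, 1.32 and 0.46 in UNT, PBS and RGLS4326. These SDs were the widest of any member in each group. As a percent of the members' summed level in the same kidney, its values were ordered and split at the 2 widest gaps, which gives 3 ranges. The number of splits was fixed and not estimated. The gaps were 1.91 and 0.56 on the log2 scale. It was at 0.0783% to 0.0983% in 3 kidneys (UNT replicate 2 and PBS replicates 1 and 8), at 0.370% to 0.449% in 14 kidneys and at 0.662% to 0.811% in 17 kidneys, with nothing between. In CPM these were 19.3 to 20.8, 66.9 to 99.7 and 135 to 333. The lowest range held 1 UNT, 2 PBS and 0 RGLS4326 kidneys, the middle range 7, 3 and 4, and the highest 4, 6 and 7. Every group had kidneys in both upper ranges, and so did each of the 3 numbering sets. Of the windows of *Rpl29*, 69.7% were shared with other annotated genes. Litter, sex and substrain were not used here, and no cause of the 3 ranges was tested.

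*Rplp0*, one of 6 reference genes against which the study scaled its PCR signature of miR-17 targets, was also uneven. Its kidneys were also split at the widest gaps, within each group, with fewer splits in UNT than in PBS and RGLS4326. Within UNT it was at 1.42% to 1.54% of the members' summed level in 6 kidneys (253 to 288 CPM) and at 2.20% to 2.51% in the other 6 (406 to 512 CPM). In PBS it was at 1.65% to 2.24% in 9 kidneys and at 2.89% and 3.18% in 2, and in RGLS4326 at 1.71% to 2.19% in 8 and at 2.96% to 3.46% in 3. Over all kidneys of a group its level was 363 ± 94, 605 ± 135 and 514 ± 150 CPM in UNT, PBS and RGLS4326. Of the other reference genes, *Gusb* (a lysosomal enzyme) and *B2m* (the light chain of MHC class I) rose in disease by 1.61 ± 0.08 and 1.08 ± 0.11 on the log2 scale, *Hprt* (purine salvage) by 0.21 ± 0.06, *Tbp* (the TATA-binding protein) fell by 0.43 ± 0.08, and *Pak1ip1* (ribosome biogenesis) had a difference of -0.10 ± 0.05 and was not called. With treatment *Gusb* alone of the 6 was called, at -0.21 ± 0.08.

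**Figure D4:**
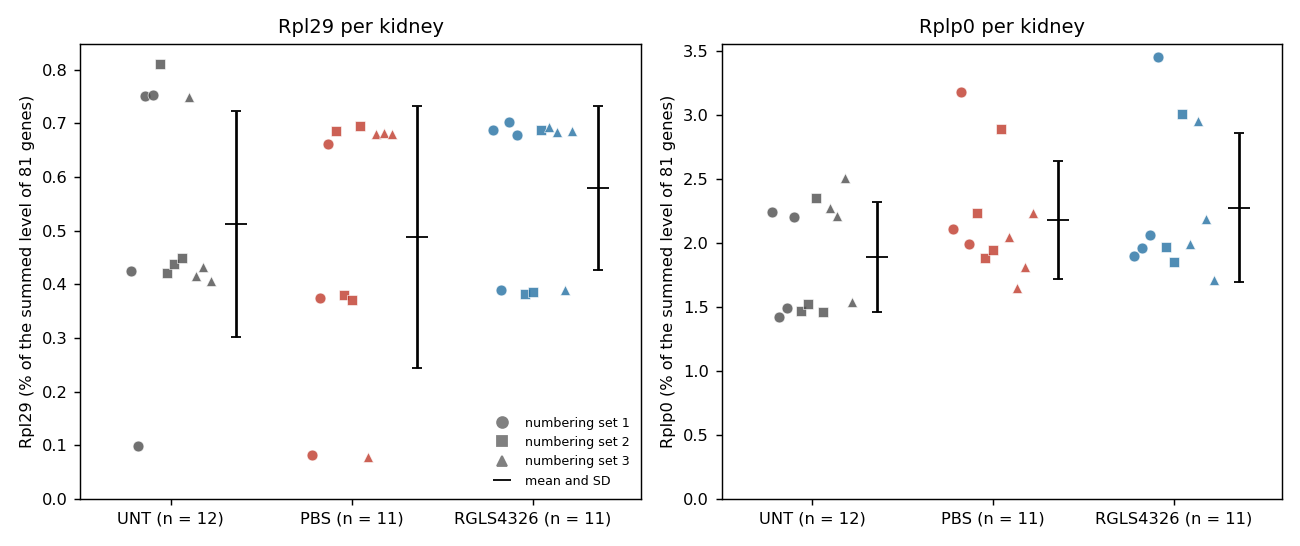
*Rpl29* (left) and *Rplp0* (right) as a percent of the summed level of the 81 members in the same kidney (vertical axes), by group, with symbols for the numbering sets and the mean and SD beside each group. Split at the widest gaps, *Rpl29* lies in 3 ranges, the lowest held by 3 kidneys, and *Rplp0* in UNT lies in 2 ranges of 6 kidneys each.

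Ribosomal components whose symbols lie outside the naming rule were read in the same fit. *Gnb2l1*, the older symbol of Rack1, a scaffold on the head of the small subunit, was at 462 to 598 CPM in UNT (median 501), 718 to 1376 in PBS (median 868) and 617 to 883 in RGLS4326 (median 769). It rose by 0.86 ± 0.08 in disease (adjusted p = 1.35e-11) and fell by 0.31 ± 0.09 with treatment (adjusted p = 0.010), and no PBS or treated kidney reached down to the UNT range. *Fau*, which encodes a ubiquitin-like protein fused to a small subunit protein, rose by 0.54 ± 0.10 and fell by 0.40 ± 0.11. *Rps3a1* rose by 0.41 ± 0.09 and had a treatment difference of -0.23 ± 0.09 (adjusted p = 0.050).

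Paralogs outside the rule did not follow their parents in disease. *Rpl22l1* fell by 0.39 ± 0.13 (adjusted p = 0.008) where *Rpl22* rose by 0.25 ± 0.08. *Rpl36al* had a difference of -0.02 ± 0.09 and *Rpl7l1* of 0.05 ± 0.06, while *Rpl36a* and *Rpl7* rose by 0.23 ± 0.10 and 0.44 ± 0.08. In treatment *Rpl36al* fell by 0.24 ± 0.09 and *Rpl36a* by 0.25 ± 0.10, and the other four were not called. *Rps27rt*, a retrotransposed copy of *Rps27*, had 0 reads. The difference between a paralog and its parent was not itself tested. Of the parents, *Rpl10* and *Rpl39* rose in disease by 0.58 ± 0.09 and 0.68 ± 0.12.

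Mitochondrial ribosomal protein genes, which build the separate ribosome of the mitochondrion, went the other way in disease. Of 76 tested, 2 were called higher (*Mrpl52* and *Mrpl33*) and 64 lower, with a median log2 fold change of -0.44. *Mrpl50* was at 128 CPM in UNT and 52.8 in PBS on average (log2 fold change -1.28 ± 0.08), and *Mrpl1* at 38.6 and 17.8 (-1.12 ± 0.07). With treatment 2 were called higher (*Mrpl1* among them, 0.23 ± 0.07) and 28 lower (*Mrpl52* with the smallest p, -0.35 ± 0.09), with a median of -0.16.

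The counts of the other lists are to be read against the 43.1% of all tested genes called higher and 38.9% called lower in disease, and the 15.2% and 18.4% with treatment. Of 22 elongation factors and other genes with TOP mRNAs, 12 were higher and 6 lower in disease (median 0.20), and 1 was higher and 8 lower with treatment (median -0.11). *Pabpc1*, the poly(A)-binding protein, rose by 0.82 ± 0.06 and the elongation factor *Eef1g* by 0.75 ± 0.08, while *Hnrnpa1* and the snoRNA host *Snhg12* fell by 1.01 ± 0.14 and 0.63 ± 0.11. With treatment *Hnrnpa1* rose by 0.36 ± 0.14 and *Eef1d* fell by 0.35 ± 0.08. Of 28 initiation factors 14 were higher and 9 lower in disease (median 0.14), and 2 higher and 10 lower with treatment (median -0.10). *Eif6*, which keeps unfinished large subunits from joining, rose by 1.03 ± 0.09 and *Eif1a* by 0.68 ± 0.06, while *Eif4a2* fell by 1.09 ± 0.11 and *Eif5* fell by 0.998 ± 0.114. *Eif5* rose by 0.44 ± 0.12 and *Eif1* fell by 0.31 ± 0.08 with treatment.

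Genes that make and regulate ribosomes were mixed. Of 48 ribosome biogenesis genes 21 were higher and 12 lower in disease (median 0.09), and 2 higher and 13 lower with treatment (median -0.05). The processome gene *Utp14a* rose by 0.50 ± 0.05 and *Tsr1* by 0.45 ± 0.05, *Utp20* and the export adaptor *Nmd3* fell by 1.19 ± 0.14 and 0.63 ± 0.07, and with treatment *Dimt1* rose by 0.34 ± 0.10 and *Rrp1* fell by 0.27 ± 0.07. Of 20 RNA polymerase I genes 8 were higher and 4 lower in disease (median 0.04), and 2 higher and 9 lower with treatment (median -0.13). *Cd3eap* and *Polr2h* rose by 0.59 ± 0.06 and 0.45 ± 0.08, and *Polr2k* and *Taf1d* fell by 1.15 ± 0.16 and 1.32 ± 0.21. With treatment *Twistnb* rose by 0.34 ± 0.10 and *Cd3eap* fell by 0.32 ± 0.07.

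Of 21 regulators in the mTOR and TOP list 8 were higher and 8 lower in disease (median 0.06), and 3 higher and 6 lower with treatment (median -0.08). *Myc*, which drives ribosome synthesis, rose by 2.30 ± 0.10 and *Eif4ebp1* by 1.61 ± 0.11, whereas *Mtor* itself and the S6 kinase *Rps6kb2* fell by 1.28 ± 0.09 and 1.02 ± 0.09. With treatment *Rps6kb1* rose by 0.36 ± 0.10 and *Mlst8* fell by 0.21 ± 0.05. Of 13 genes for p53 and ribosome quality control 3 were higher and 8 lower in disease (median -0.36). *Trp53* rose by 1.11 ± 0.07 and its target *Cdkn1a* by 2.80 ± 0.21, and the rescue factors *Hbs1l* and *Nemf* fell by 0.46 ± 0.04 and 0.72 ± 0.07. With treatment 4 were higher and 3 lower (median 0.12), *Mdm4* rising by 0.95 ± 0.24 and *Zfp593* falling by 0.31 ± 0.09.

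**Figure D5:**
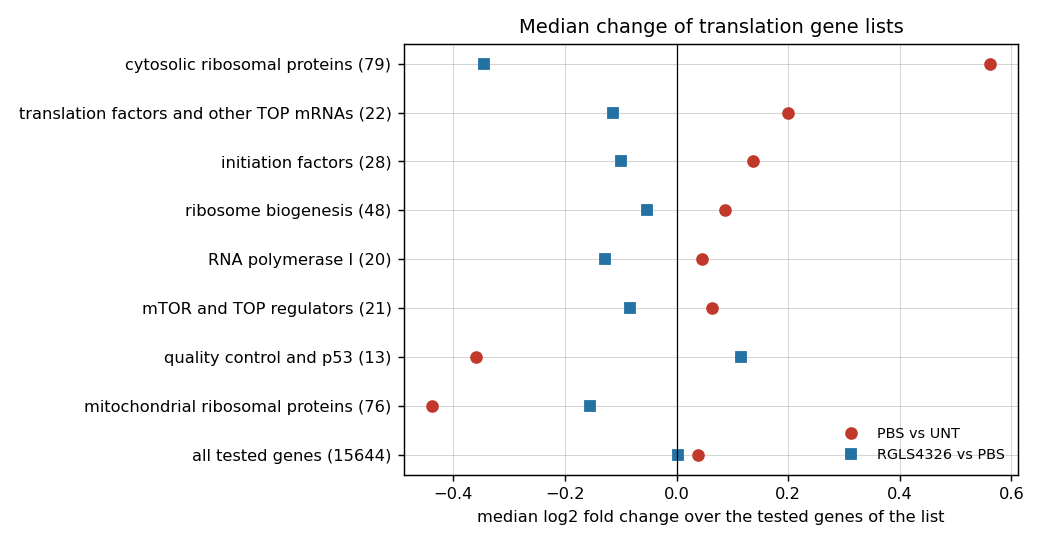
Median log2 fold change (horizontal axis) over the tested genes of each list, with the number tested in parentheses, in PBS vs UNT (circles) and RGLS4326 vs PBS (squares). The cytosolic ribosomal protein genes have medians of 0.56 and -0.35, the mitochondrial ones -0.44 and -0.16, and all tested genes 0.04 and 0.00.

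Markers of kidney cell types moved with the same groups. All 12 proximal tubule genes fell in disease, and their summed level was 30757 to 42373 CPM in UNT, 1716 to 7333 in PBS and 3898 to 7432 in RGLS4326 (*Kap* and *Slc34a1* highest). Of 9 thick limb and distal genes 8 fell and 1 rose (10730 to 17548, 2756 to 5416 and 4435 to 6377, led by *Umod* and *Egf*), and of 6 podocyte genes 5 fell and 1 rose (624 to 768, 372 to 484 and 436 to 517, led by *Podxl* and *Synpo*). Of 7 endothelial genes 5 fell and 2 rose (556 to 671, 394 to 597 and 526.2 to 650, led by *Emcn* and *Pecam1*). Of 13 collecting duct genes 10 rose and 3 fell (1052 to 1514, 1965 to 4165 and 1199 to 3354, led by *Aqp2* and *Hsd11b2*).

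All 9 macrophage genes rose (112 to 191, 964 to 2972 and 892 to 1839 CPM, led by *Lyz2* and *Csf1r*), as did all 9 fibroblast genes (709 to 1662, 3568 to 7424 and 4682 to 6820, led by *Col3a1* and *Col1a2*). Of 11 lymphocyte genes 7 rose and 1 fell (5.58 to 10.5, 17.7 to 51.8 and 13.6 to 25.5, led by *Cd4* and *Cd79b*), and of 10 proliferation genes 9 rose (129 to 376, 289 to 448 and 308 to 490, led by *Mki67* and *Pcna*). Of 8 red cell genes 1, *Alas2*, was tested and fell (7.25 to 46.9, 2.22 to 14.4 and 4.53 to 13.7 for the list, with *Hbb-bt* and *Hbb-b2* at 0 in every library). With treatment 6 proximal tubule, 5 thick limb, 4 podocyte and 5 endothelial genes and 1 fibroblast gene (*Pdgfra*) rose, 5 macrophage, 7 lymphocyte and 8 collecting duct genes and 1 thick limb gene (*Cldn16*) fell, and no proliferation gene was called. PBS replicate 9, with the highest ribosomal level, also had the highest summed macrophage (2972) and lymphocyte (51.8) level of all kidneys and the lowest PBS level of the thick limb, endothelial and fibroblast lists. It was the highest PBS kidney as well for the TOP, ribosome biogenesis, RNA polymerase I and mitochondrial ribosomal lists (15703, 2754, 777 and 3837 CPM). For the p53 and quality control list it was the lowest (827 CPM), and for the initiation factor and mTOR lists neither. The part of these cells in the ribosomal protein result was not tested.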

How the data were processed

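Whole-kidney polyadenylated RNA from 34 mice was analysed (UNT 12, PBS 11, RGLS4326 11). The authors prepared stranded mRNA libraries, sequenced paired 75-base reads, trimmed them with Trim Galore, aligned them with STAR to GRCm38 and deposited raw counts of uniquely mapped reads per gene made with HTSeq 0.6.1. FastQC 0.11.2, SAMtools 1.1 and Picard 1.119 are listed in the submitters' processing notes. The annotation and strand setting were not given in the sources used here. The 5 summary rows of each table (reads in no gene, not uniquely aligned and others) were kept out of library sizes. No pair of libraries was identical.

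Groups came from the labels. Counts were fitted with edgeR 4.0.16 (R 4.3.3; robust quasi-likelihood test, trimmed mean of M values scaling, default low-count filter, all 34 libraries in 1 fit), with Benjamini-Hochberg adjustment over 15644 genes and a threshold of 0.05. Errors of fold changes are SEs, and p-values measure the spread between these mice. SDs on the log2 scale used a pseudocount of 0.5 CPM. The steps were tested on simulated data with genes drawn independently and no outlying kidney. That test cannot check the dependence on PBS replicate 9 or on transcript length. Alternatives were other scalings, DESeq2 1.42.0, no filter, covariates, single numbering sets, a replicate block, and each library left out in turn, and the short and long gene index was added after the data were seen. Transcript lengths, overlaps and shared windows came from GENCODE M21. Tables and figures used Python 3.11.15, numpy 2.4.6, pandas 2.3.3 and matplotlib 3.10.9.

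Members and lists were chosen with earlier results of these data known. Named members are, by rule, the 6 called in each direction with the smallest p in the disease and treatment comparisons, those not called in disease, those removed by the filter, the 3 lowest and highest per length in UNT, the 3 with the smallest and largest SD in each group, the paralogs with their parents, and *Rplp0*. From other lists the genes with the smallest p in each direction are named (2 in disease, 1 with treatment), and from marker lists the 2 with the highest level. Some genes that the rule names are not reported here.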

Additional observations from a re-analysis of the deposited data

Results flagged for a closer look

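In groups of 4 kidneys (a group within a numbering set), the highest or lowest kidney was set against the other three by Dixon's test, whose 95% critical value is 0.829 for 4 samples. The checks covered the members' summed level, *Rpl29* and *Rplp0*, the last 2 being genes already known to be uneven. Of 21 such checks 5 were past the value. Chance flags about 1 in 20 groups, which is no measure for genes picked for their spread. For *Rpl29* these were UNT replicate 5, at 154 CPM in numbering set 2, UNT replicate 9, at 169 CPM in set 3, and RGLS4326 replicate 2, at 90.0 CPM in set 1. As a percent of the members' summed level, the flagged UNT kidneys lay in the *Rpl29* range held by 17 kidneys. The flagged RGLS4326 kidney lay in the range held by 14. For *Rplp0* they were UNT replicate 7, at 420 CPM in set 2, and RGLS4326 replicate 4, at 849 CPM in set 1. UNT replicate 7 lay in the upper UNT range of *Rplp0*, held by 6 kidneys, and RGLS4326 replicate 4 had the highest share of its group (3.46%). The test sets 4 kidneys side by side, so it can flag a kidney whose level is common in other sets. No cause was tested.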

How the results depend on the processing

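The 71 higher and 2 lower members in PBS vs UNT became 30 and 2 when the percent of reads assigned to no gene was a covariate and 42 and 0 with the percent not aligned uniquely. The lower count was 1 with library size alone, in numbering set 3 alone, with only the 2 groups compared and with upper quartile factors. The median of 0.56 was 0.85 with library size alone, which moved the median of all genes to 0.33, 0.29 in set 1, 0.85 in set 3 and 0.25 with the no-gene percent. In RGLS4326 vs PBS the 62 lower members became 0 in set 1 alone, in set 3 alone and with the no-gene percent, the short and long gene index, or that index with the numbering set as covariates. The median of -0.35 was -0.13 in set 1, -0.53 in set 3 (where 0 of 15676 genes were called), -0.18 with the no-gene percent, -0.058 with the index and -0.072 with index and set. In RGLS4326 vs UNT the 44 higher and 3 lower became 71 and 1 with library size alone, 10 and 10 in set 2, 15 and 1 in set 3, 15 and 6 with the no-gene percent, 5 and 0 with the percent not aligned uniquely, 77 and 1 with the index and 75 and 1 with index and set, and 5 were lower in set 1. Of all genes, 58.5% were higher with library size alone, 33.8% in set 2, 29.9% in set 3, 39.7% with the no-gene percent and 38.9% with index and set, against 89.9%, 12.7%, 19%, 19% and 94.9% of the members. The median of 0.23 was 0.53 with library size alone, 0.58 with the index, alone or with the set, 0.070 in set 2 and 0.087 with the no-gene percent. The causes were not tested.

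With each library left out in turn, PBS vs UNT gave 64 to 73 higher and 1 to 2 lower with medians of 0.42 to 0.60, RGLS4326 vs PBS 0 higher and 51 to 65 lower with medians of -0.37 to -0.22, and RGLS4326 vs UNT 38 to 46 higher and 2 to 4 lower with medians of 0.21 to 0.25. Of the 15625 to 15696 genes tested in these fits, 6548 to 6771 were higher and 6021 to 6365 lower in PBS vs UNT. In RGLS4326 vs PBS 1727 to 2874 were higher and 2064 to 3324 lower, and in RGLS4326 vs UNT 6306 to 6416 and 5686 to 6036. The fewest calls in the first 2 comparisons, and the medians nearest 0, were those without PBS replicate 9. DESeq2 called 69 higher and 2 lower, 65 lower, and 37 higher and 3 lower in the 3 comparisons, where it called 41.5% and 40.7%, 20% lower, and 39.1% and 39.3% of all genes.

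Replicate numbers were shared by the groups, but 9 of 33 same-numbered pairs correlated above 0.1 (range -0.33 to 0.41) and 3 libraries correlated best with their own number, so the numbers did not pair the mice. A replicate block gave 70 higher and 2 lower, 64 lower, and 44 higher and 3 lower, with medians of 0.52, -0.32 and 0.21. With it 42.9% and 38.8%, 18% lower, and 40.8% and 36.9% of all genes were called.

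Changes of sign were followed for 45 genes named by the rule, and counted where either value passed the test. In PBS vs UNT these were *Pak1ip1* (0.20), *Rpl36al* (0.27) and *Rps27l* (0.051) with library size alone, *Rps27l* in set 3 (0.053), *Rpl22* (-0.00173), *Rpl35a* (-0.35), *Rpl36a* (-0.058) and *Rps24* (-0.084) in set 1, *Rpl7a* (-0.0642) and *Rpl22l1* (0.058) with the no-gene percent, and *Rpl22l1* (0.70) with the percent not aligned uniquely. In RGLS4326 vs PBS they were *Rpl36a* (0.014) and *Rpl36al* (0.013) with the index and *Rpl36a* (0.014) with index and set. Over all 79 members, none was positive in RGLS4326 vs PBS as reported, 17 were with the index, 17 with index and set, 7 in set 1 and 4 in set 2. *Rpl39l* and *Rpl10l* had too few reads to be tested.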
